A study of Mus musculus with 6 samples.

Results

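The 39 genes described here act in the Fanconi anaemia pathway, in homologous recombination and in the DNA damage checkpoint. They were taken as a list of gene symbols from a table of read counts for 23366 genes. No measured value entered the rule, but the list was chosen with earlier results of these data known. All 39 were in the table, and all 39 were among the 10897 genes with enough counts to test. The counts come from mouse CD4+ effector T cells that were sorted out of mesenteric lymph nodes 6 weeks after transfer into Rag-deficient mice, hosts without T and B cells of their own. Per the labels the strain background was FVB/N. The sort used efflux of the dye rhodamine 123 (Rh123): Mdr1+ cells kept little dye (Rh123lo) and Mdr1- cells kept much (Rh123hi), so the groups are fractions of the transferred cells and not separate genotypes. Each group had 3 libraries, numbered as replicates 1 to 3, and whether they are different mice is not stated in the labels. The p-values therefore cover the spread between these samples, which may be technical.

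The Fanconi pathway, known from an inherited bone marrow failure syndrome, repairs covalent links between DNA strands. Its core complex adds ubiquitin to a partner complex of FANCD2 and FANCI, which then recruits nucleases and homologous recombination proteins such as BRCA1 and BRCA2. Recombination copies the broken stretch from the sister DNA molecule and therefore works in S and G2 phase, and the kinases ATM and ATR, with CHEK1 and CHEK2 below them, hold the cell cycle while repair proceeds. In dividing lymphocytes many of these genes are transcribed mainly in cycling cells.

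Libraries held between 2220691 and 20771456 counts in genes, and the shallowest was Mdr1+ replicate 3. A floor of 3 counts equals 0.144 to 1.35 CPM (counts scaled to library size) across libraries before TMM scaling; all levels below are TMM-scaled CPM, comparable between libraries but not between genes, since gene lengths were not used. The counts of replicate 3 were deposited in another gene order than the names beside them and were put back in place before any test. Sums over 9 T cell identity genes were 4077 to 5185 CPM in Mdr1+ and 4248 to 4737 CPM in Mdr1- libraries, with Cd4 at 1023 to 1124 CPM. Among B cell markers, Ms4a1 stayed at or below 0.112 CPM in every library, Cd79a was highest in Mdr1+ replicate 3 at 11.3 CPM, and Cd22 was at 8.47 to 21.6 CPM in Mdr1+ and 4.24 to 8.21 CPM in Mdr1- libraries (edgeR, adjusted p = 0.331 without and 0.0371 with the block). The summed list of 6 was at 11.1 to 22.8 CPM in Mdr1+ and 6.59 to 11.1 CPM in Mdr1- libraries. Sums over 7 myeloid markers were 0.421 to 6.13 CPM in Mdr1+ libraries and 1.56 to 84.1 CPM in Mdr1- libraries, the highest being Mdr1- replicate 3. Among them Lyz2 was at 0.140 to 1.41 CPM in Mdr1+ and 0.432 to 14.6 CPM in Mdr1- libraries. Its adjusted p in edgeR was 0.316 without and 0.0461 with the block. Sums over 5 dendritic cell markers were 0 to 1.33 CPM in Mdr1+ and 2.01 to 3.29 CPM in Mdr1- libraries, without overlap. Itgax (0 to 0.498 against 0.849 to 2.51 CPM) and Batf3 (0 to 0.140 against 0.170 to 0.519 CPM) were separated in that direction. Flt3, Xcr1 and Siglech overlapped, with Siglech at 0 in 5 of 6 libraries. All 5 had too few counts to test. Of 5 stromal and endothelial markers, with sums of 117 to 191 CPM in Mdr1+ and 126 to 137 CPM in Mdr1- libraries, nearly all from Pecam1, Acta2 fell (0 to 0.280 against 4.08 to 6.40 CPM, adjusted p = 0.0180). Cdh5 was separated in the same direction (0.327 to 0.472 against 1.79 to 2.42 CPM, adjusted p = 0.117). The part of these other transcripts in the results below was not tested.

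Mdr1+ cells had less transcript of a large share of these genes. In edgeR's quasi-likelihood test, at an adjusted p under 0.05 over all genes tested, 14 of the 39 fell (35.9%), where 1.95% of all tested genes did. They were Fancd2, Fanci, Brca1, Bard1, Brca2, Brip1, Rad51ap1, Rad54l, Exo1, Eme1, Polq, Chek1, Clspn and Neil3. None of the 39 rose, where 0.275% of all tested genes did. At an unadjusted p under 0.05 there was 1 higher gene, Atr, where 1292 of 10897 tested genes were under it in either direction. DESeq2 called 0 higher, against 0.831% of the genes it tested. The median log2 fold change, Mdr1+ over Mdr1-, was -0.76 for the 39 and 0.04 for all tested genes. In bulk libraries, fewer cells that express a gene and less transcript per cell cannot be told apart.

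Every one of the 14 genes had no overlap between groups, with all 3 Mdr1+ libraries below all 3 Mdr1- libraries. The 14 were picked by the test on these same libraries, so their separation is no separate support. In all, 24 of the 39 were separated in that direction, against 11.0% of all tested genes, and 0 in the other direction, against 8.71%. Within the pairs of libraries that share a replicate number, the median log2 ratio of the 39 genes was -0.74, -1.0 and -0.82 for replicates 1, 2 and 3, and that of all tested genes lay between -0.02 and 0.09. By these ratios 31 genes were lower in Mdr1+ in all 3 pairs, 2 were higher in all 3 (Atr and Mdc1) and 6 had both signs. The shares of all tested genes with such signs were not computed, so these counts have no background beside them.

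When the replicate number was added to the model as a block, 19 of the 39 fell (48.7%) against 6.57% of all tested genes, and 1, Atr, rose against 5.81%. All 14 genes called without the block were called with it. The others were Fanca, Rad54b, Blm, Topbp1 and Ung, which fell, and Atr.

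The count of 14 was kept without Mdr1- replicate 1 and became 12 without Mdr1+ replicate 3, 6 without Mdr1+ replicate 1, 8 without Mdr1+ replicate 2, 8 without Mdr1- replicate 2 and 3 without Mdr1- replicate 3, the library with the myeloid transcripts. The 3 genes that fell without that library were Brca1, Bard1 and Rad54l, and the median log2 fold change of the 39 genes was then -0.74. Leaving out both libraries of a replicate number gave 5 for number 1, 2 for number 2 and 0 for number 3. In the last case 20 of the 39 were lower at an unadjusted p under 0.05, where 904 of 11177 tested genes were under it in either direction. The share of all tested genes that fell was 0.669% to 1.80% with 1 library left out, and 0.975%, 0.402% and 0% without numbers 1, 2 and 3. With the block, 21 of the 39 fell without number 1, 14 without number 2 and 25 without number 3, against 6.26%, 3.66% and 12.1% of all tested genes. Genes of the 39 that rose in these blocked fits numbered 1 (Atr), 1 (Atr) and 2 (Atm and Atr), against 3.93%, 2.42% and 10.1% of all tested genes.

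Proliferation markers moved with these genes. All 12 listed markers fell, where 1.95% of all tested genes did. Their summed levels were 393 to 530 CPM in Mdr1+ and 1901 to 2996 CPM in Mdr1- libraries. Mki67, an antigen gene of dividing cells, was at 218, 178 and 241 CPM in Mdr1+ and at 851, 1354 and 1488 CPM in Mdr1- replicates 1, 2 and 3. The part of cell cycling in the lower repair transcripts was not tested.

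**Figure D1:**
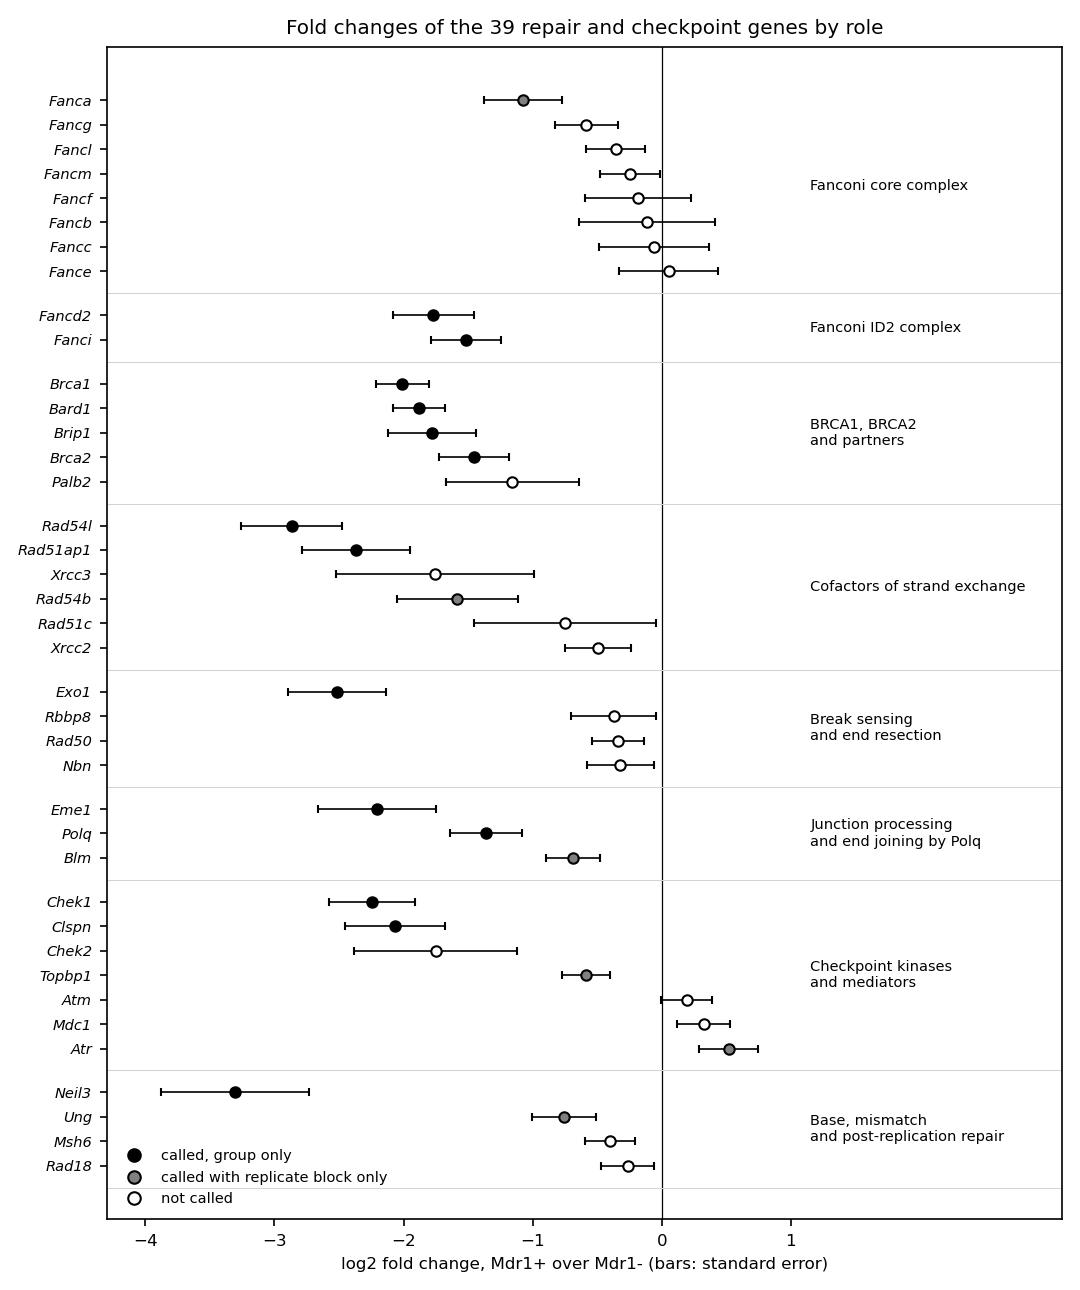
Log2 fold change of Mdr1+ over Mdr1- (x axis) for each of the 39 genes (y axis), ordered within their roles; bars are standard errors, black symbols passed the test with group only, grey symbols passed only in the other edgeR fit, with the replicate block, and white symbols in neither. The black symbols lie between -3.31 and -1.36 and occur in every role except the Fanconi core complex.

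The promoters of the 39 genes were searched for elements that cell cycle genes are known to carry, since many of these genes moved together. RefSeq windows on build GRCm38.p6, from 250 bases before to 50 bases after a gene's start, were used for 32 of the 39, in 35 windows; the other 7 are Fancd2, Rad54b, Xrcc2, Nbn, Rad50, Rbbp8 and Exo1. An E2F element, one of the letters TTTCCCGC, TTTGGCGC or TTCCCGCC on either strand (matches may overlap), was in the windows of 12 of these 32 genes (37.5%). The share was 3.69% over all 27025 genes with a window and 7.52% over the 8081 of them that were tested. The element was in 5 of 12 genes that fell (41.7%) and in 7 of 20 that were not called. The hexamer TTTGAA, part of the cell cycle homology region, was in 3 of 12 genes that fell (Polq, Eme1 and Bard1) and in 0 of 20 that were not called, against 14.0% of tested genes with a window. With TTTAAA counted too, those counts were 3 and 1, or 12.5% of the 32 genes against 22.0% of tested genes, and the CCAAT box was in 5 of 12 and 13 of 20, against 43.4% of tested genes.

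The 12 genes with an E2F element are shown by their sites of 30 bases, 5′ to 3′ on the gene's strand. They were picked for the match, so sharing it is fixed by the choice. Capitals mark the element, and the sequence is the reference strain's, not that of FVB/N.
Genes that fell in Mdr1+ cells come first.
Bard1 at chr1:71103163-71103192, minus strand: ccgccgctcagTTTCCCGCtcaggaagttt
Brca2 at chr5:150522442-150522471, plus strand: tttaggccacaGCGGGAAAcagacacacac
Rad51ap1 at chr6:126939558-126939587, minus strand: gtctggttttcGGCGGGAAttgaaaccgcc
Chek1 at chr9:36726609-36726638, minus strand: cagcatgacgcaagcaggttttGGCGGGAA
Polq at chr16:37011784-37011813, plus strand: ttgaagatggaGGCGGGAAgatggaggcgg
The genes that were not called follow.
Fancg at chr4:43010335-43010364, minus strand: tttcttttcagTTTCCCGCggaaccgtctc
Fancm at chr12:65075538-65075567, plus strand: aaccaatcatcTTCCCGCCgcaaaatcggc
Fancb at chrX:164980408-164980437, plus strand: tccggggtagaGGCGGGAAtaagtgctctg
Rad51c at chr11:87404942-87404971, minus strand: tcccccgcgagGGCGGGAAAagcaaggggt
Chek2 at chr5:110839820-110839849, plus strand: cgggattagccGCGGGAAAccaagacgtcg
Mdc1 at chr17:35841471-35841500, plus strand: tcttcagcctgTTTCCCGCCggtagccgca
Msh6 at chr17:87975054-87975083, plus strand: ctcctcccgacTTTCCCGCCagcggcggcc
A match of letters is a description of the sequence and shows no binding.

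None of the genes of the Fanconi core complex, the ubiquitin ligase of the pathway, passed in edgeR without the block. Of its 8 members 2 were lower at an unadjusted p under 0.05 (Fanca and Fancg), DESeq2 called 1 lower (Fanca), and the median log2 fold change was -0.22. Fanca, a scaffold subunit, was at 11.6, 13.6 and 22.2 CPM in Mdr1+ and at 24.9, 37.8 and 33.8 CPM in Mdr1- replicates 1, 2 and 3. These groups did not overlap, and the log2 fold change of -1.08 ± 0.30 (standard error) had an adjusted p of 0.144 in edgeR without the block and 0.0114 with it. Fance, which bridges the core complex and FANCD2, was at 6.81, 14.3 and 13.2 CPM in Mdr1+ and at 7.48, 14.2 and 11.4 CPM in Mdr1- libraries. In both groups replicate 1 was lowest and replicate 2 highest, and the groups overlapped, with a log2 fold change of 0.05 ± 0.39 (adjusted p = 0.974). Fancl, the catalytic subunit, averaged 19.1 ± 2.5 against 24.6 ± 2.7 CPM, and Fancg averaged 16.4 ± 3.0 against 25.1 ± 2.9 CPM (SD, n = 3 each). Their log2 fold changes of -0.36 and -0.58 had adjusted p-values of 0.623 and 0.375 in edgeR. Fancm, the translocase that anchors the complex on DNA, was at 66.5 to 108 CPM in Mdr1+ and 76.6 to 114 CPM in Mdr1- libraries (log2 fold change -0.25 ± 0.24, adjusted p = 0.750). Fancb, Fancc and Fancf had log2 fold changes of -0.11, -0.06 and -0.18 with standard errors of 0.41 to 0.53, and for each of them the Mdr1+ libraries ranged from below to above the Mdr1- libraries.

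Both genes of the complex that the ligase modifies, Fancd2 and Fanci, had lower transcript levels in Mdr1+ cells. Fancd2 was at 12.5, 10.7 and 6.13 CPM in Mdr1+ and at 24.7, 39.5 and 39.7 CPM in Mdr1- replicates 1, 2 and 3. The log2 fold change was -1.77 ± 0.32 (edgeR, adjusted p = 0.0232). Fanci was at 10.5, 16.2 and 14.1 CPM in Mdr1+ and at 29.4, 45.8 and 42.3 CPM in Mdr1- libraries, a log2 fold change of -1.52 ± 0.27 (adjusted p = 0.0232). For either gene the lowest Mdr1- library was replicate 1, and it still lay above all Mdr1+ libraries. Each single library and each replicate number was left out in turn, in 9 fits, and Fancd2 passed in 3 of these and Fanci in 2.

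Of 5 genes for BRCA1, BRCA2 and their partners 4 fell. Brca1, whose product steers breaks toward recombination, was at 26.3, 22.8 and 29.2 CPM in Mdr1+ and at 92.8, 94.1 and 125 CPM in Mdr1- replicates 1, 2 and 3. That is a log2 fold change of -2.01 ± 0.20 (edgeR, adjusted p = 0.00366). Bard1 encodes the obligate partner of BRCA1 in a ubiquitin ligase. It was at 13.3, 13.0 and 14.1 CPM in Mdr1+ and at 45.7, 51.5 and 50.9 CPM in Mdr1- libraries, a log2 fold change of -1.88 ± 0.20 (adjusted p = 0.00366). Either gene passed in 8 of the 9 leave-out fits, the exception being the fit without replicate 3. Brca2, a core gene of homologous recombination, averaged 19.6 ± 4.9 against 52.3 ± 14.2 CPM, and the helicase gene Brip1 averaged 16.1 ± 7.3 against 52.2 ± 7.2 CPM (SD, n = 3 each). Both fell, with log2 fold changes of -1.45 and -1.78 (adjusted p = 0.0283 and 0.0306), and each passed in 3 of the 9 leave-out fits. Palb2, which links BRCA1 with BRCA2, was at 6.81, 7.38 and 0.943 CPM in Mdr1+ and at 9.93, 15.8 and 11.5 CPM in Mdr1- libraries. The lowest of these values rests on 2 reads. Palb2 did not pass (log2 fold change -1.16 ± 0.51, adjusted p = 0.422 without and 0.0921 with the block).

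**Figure D2:**
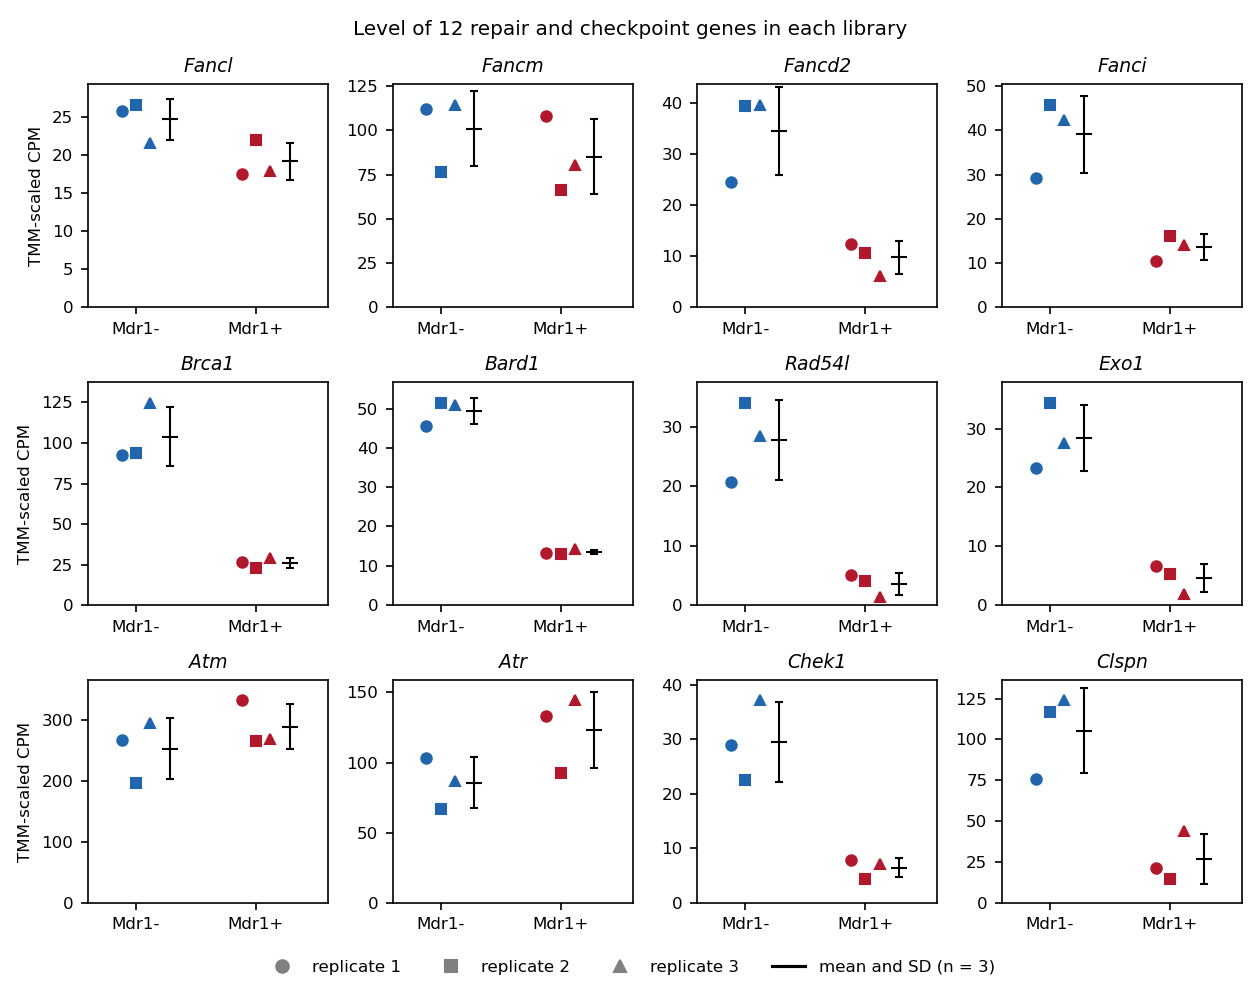
TMM-scaled CPM (y axes, linear from 0, scale set per gene) of 12 genes by sorted fraction; each symbol shape is a replicate number, and the mean with its SD (n = 3) is drawn as a bar. Fancd2, Fanci, Brca1, Bard1, Rad54l, Exo1, Chek1 and Clspn have no overlap between groups, while Fancl, Fancm, Atm and Atr do overlap.

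Among 6 genes for cofactors of DNA strand exchange, 2 fell in edgeR without the block. Rad54l, a motor protein gene of DNA strand exchange, was at 4.98, 4.02 and 1.41 CPM in Mdr1+ and at 20.8, 34.2 and 28.5 CPM in Mdr1- replicates 1, 2 and 3. The log2 fold change was -2.87 ± 0.39 (edgeR, adjusted p = 0.00687), and it passed in 7 of the 9 leave-out fits. Rad51ap1, which encodes a cofactor of strand exchange, was at 2.99, 2.29 and 6.13 CPM in Mdr1+ and at 13.8, 20.2 and 18.2 CPM in Mdr1- libraries (log2 fold change -2.37 ± 0.42, adjusted p = 0.0228, 2 of 9 leave-out fits). Rad54b, a relative of Rad54l, was at 3.99, 2.85 and 9.43 CPM against 11.1, 15.5 and 17.0 CPM, without overlap. It had a log2 fold change of -1.58 ± 0.47 and an adjusted p of 0.172 without and 0.0201 with the block, 0.0258 in DESeq2, and 0.0376 without the block when Mdr1+ replicate 3 was left out. Xrcc2, Xrcc3 and Rad51c, whose products assist strand exchange, did not pass. Xrcc2 was at 15.6, 15.1 and 10.8 CPM in Mdr1+ and 18.9, 22.0 and 18.7 CPM in Mdr1- libraries, a small shift without overlap (-0.50 ± 0.26, adjusted p = 0.499). Rad51c and Xrcc3 were at most 6.98 CPM in any library and had 0 counts in Mdr1+ replicate 3, below the floor of 3 counts. Their log2 fold changes of -0.75 ± 0.70 and -1.75 ± 0.77 had adjusted p-values of 0.744 and 0.414.

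Of 4 genes that sense breaks and trim their ends, 1 fell, and it encodes the exonuclease that extends the trimming. Nbn and Rad50 encode subunits of the break sensor. Nbn was at 33.7, 34.9 and 18.4 CPM in Mdr1+ and at 39.5, 39.9 and 31.6 CPM in Mdr1- replicates 1, 2 and 3. Its groups overlapped, with a log2 fold change of -0.32 ± 0.26 (edgeR, adjusted p = 0.709). Rad50 averaged 71.2 ± 10.7 against 90.0 ± 15.5 CPM, and Rbbp8, which starts resection, averaged 74.8 ± 33.2 against 96.8 ± 26.0 CPM (SD, n = 3 each), with adjusted p-values of 0.579 and 0.730. Exo1, the exonuclease gene, was at 6.65, 5.19 and 1.89 CPM in Mdr1+ and at 23.2, 34.4 and 27.5 CPM in Mdr1- libraries. Its log2 fold change was -2.52 ± 0.38 (adjusted p = 0.0108), and it passed in 6 of the 9 leave-out fits.

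Of 3 genes that process joined molecules or offer another route of end joining, 2 fell in edgeR without the block, and Blm was added with it. Eme1, the partner of the MUS81 nuclease, was at 2.16, 2.99 and 4.72 CPM in Mdr1+ and at 8.48, 20.5 and 13.6 CPM in Mdr1- replicates 1, 2 and 3. The log2 fold change was -2.20 ± 0.46 (edgeR, adjusted p = 0.0435), and 1 of the 9 leave-out fits called it. Polq, a DNA polymerase gene of alternative end joining, averaged 21.5 ± 8.0 against 53.3 ± 9.1 CPM (SD, n = 3 each) and fell, its log2 fold change being -1.36 ± 0.28 (adjusted p = 0.0409, 2 of 9 leave-out fits). Blm, a helicase gene, was at 26.3, 26.2 and 32.5 CPM against 38.0, 45.7 and 52.3 CPM. These libraries did not overlap, and the log2 fold change of -0.69 ± 0.21 had an adjusted p of 0.184 without and 0.0193 with the block.

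Of 7 checkpoint genes, 2 fell in edgeR without the block, Chek1 and Clspn. The upstream kinase genes Atm and Atr did not pass in that fit. Atm was at 332, 266 and 269 CPM in Mdr1+ and at 268, 197 and 295 CPM in Mdr1- replicates 1, 2 and 3, with overlap and a log2 fold change of 0.19 ± 0.20 (edgeR, adjusted p = 0.771). Atr was at 133, 92.4 and 144 CPM in Mdr1+ and at 103, 67.1 and 86.8 CPM in Mdr1- libraries. The groups overlapped, but Mdr1+ was higher in each pair of the same number, and the log2 fold change of 0.52 ± 0.23 had an adjusted p of 0.416 without and 0.0174 with the block. Mdc1, which binds the histone mark at breaks, averaged 78.7 ± 14.0 against 62.7 ± 9.8 CPM (SD, n = 3 each; 0.33 ± 0.20, adjusted p = 0.615).

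Chek1, the effector kinase gene below ATR, was at 7.81, 4.44 and 7.07 CPM in Mdr1+ and at 29.0, 22.5 and 37.2 CPM in Mdr1- replicates 1, 2 and 3. The highest Mdr1+ library lay below the lowest Mdr1- library, with a log2 fold change of -2.24 ± 0.33 (edgeR, adjusted p = 0.0100, 5 of 9 leave-out fits). Clspn encodes claspin, the adaptor through which ATR acts on CHEK1. It was at 21.1, 14.9 and 43.9 CPM in Mdr1+ and at 75.6, 117 and 124 CPM in Mdr1- libraries (-2.07 ± 0.38, adjusted p = 0.0278, 3 of 9 leave-out fits). Topbp1, an activator of ATR, was at 224, 164 and 233 CPM against 306, 285 and 341 CPM. That shift was smaller (-0.59 ± 0.19) and passed with the block only (adjusted p = 0.221 and 0.00465). Chek2, the effector below ATM, averaged 2.58 ± 2.23 against 10.1 ± 2.9 CPM (SD, n = 3 each) with 0 counts in Mdr1+ replicate 3, and did not pass (-1.75 ± 0.63, adjusted p = 0.295 without and 0.0591 with the block).

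Of the 4 remaining genes, Neil3 had the largest fall of all 39. Neil3 encodes a glycosylase that also unhooks DNA crosslinks. It had 12, 55 and 0 counts in Mdr1+ replicates 1, 2 and 3, or 1.99, 2.57 and 0 CPM, and was at 11.7, 21.4 and 24.1 CPM in Mdr1- libraries. Its log2 fold change was -3.31 ± 0.58 (edgeR, adjusted p = 0.0213), and it passed in 4 of the 9 leave-out fits. Ung, the uracil glycosylase gene, was at 11.8, 15.0 and 15.6 CPM against 20.1, 24.7 and 26.5 CPM without overlap, and fell with the block only (-0.76 ± 0.25, adjusted p = 0.234 without and 0.0358 with it). Msh6, a mismatch recognition gene, was at 64.6 to 92.0 CPM in Mdr1+ and 85.8 to 105 CPM in Mdr1- libraries, with overlap (-0.40 ± 0.19, adjusted p = 0.472). Rad18, a ubiquitin ligase gene of post-replication repair, was at 24.6, 22.9 and 27.4 CPM against 31.3, 26.8 and 31.1 CPM. Its groups overlapped (-0.26 ± 0.21, adjusted p = 0.692).

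Count ratios of 8 pairs of functionally linked genes were taken within each library, which needs no scaling between libraries. The pairs were chosen after the values had been seen, and no test was made. The ratios use the same counts as the calls above and are no separate support for them. Ratios of other gene pairs were not computed, so the pairs without overlap have no background beside them. Chek1 counts were 0.0588, 0.0480 and 0.0490 of the Atr counts in Mdr1+ and 0.282, 0.335 and 0.429 in Mdr1- replicates 1, 2 and 3, a mean ratio 6.71 times higher in Mdr1- cells. The ratio of Fancd2 to the ligase gene Fancl was 0.714, 0.487 and 0.342 in Mdr1+ and 0.957, 1.49 and 1.84 in Mdr1- libraries. The groups did not overlap in either ratio. Chek2 over Atm, at 0.00868 ± 0.00759 in Mdr1+ and 0.0424 ± 0.0217 in Mdr1- libraries, and Clspn over Topbp1, at 0.124 ± 0.055 and 0.340 ± 0.084 (SD, n = 3 each), did not overlap between groups either. The other 4 pairs, all partners of 1 complex, overlapped. This split follows in part from the calls without the block. Chek1, Fancd2 and Clspn fell while Atr, Fancl and Topbp1 were not called, and Brca1 and Bard1 both fell, as did Fancd2 and Fanci. Brca2 over Palb2 overlapped although only Brca2 was called. The ratio of Brca1 to its partner Bard1 was 1.98, 1.75 and 2.07 in Mdr1+ and 2.03, 1.83 and 2.45 in Mdr1- libraries, with overlap. Fancd2 over its partner Fanci was 1.19, 0.662 and 0.433 in Mdr1+ and 0.840, 0.862 and 0.940 in Mdr1- libraries, so the Mdr1+ libraries lay on both sides of the Mdr1- libraries. Nbn over Rad50 averaged 0.420 ± 0.169 in Mdr1+ and 0.424 ± 0.118 in Mdr1- libraries (SD, n = 3 each). Brca2 over Palb2 was higher on average in Mdr1+ libraries (10.4 ± 13.9 against 4.40 ± 1.59), with 26.5 in Mdr1+ replicate 3, where Palb2 had 2 counts.

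**Figure D3:**
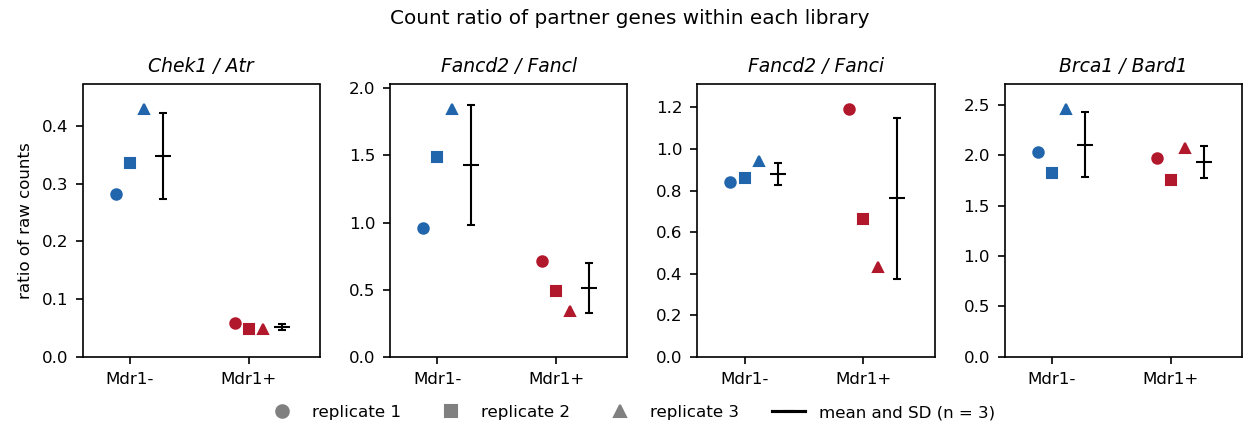
Ratio of raw counts within a library (y axes, linear from 0) for 4 gene pairs by sorted fraction; each symbol shape is a replicate number, and the mean with its SD (n = 3) is drawn as a bar. Chek1 over Atr and Fancd2 over Fancl are separated between groups, and the ratios of the complex partners Fancd2 over Fanci and Brca1 over Bard1 overlap.

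Other genes of DNA repair were examined in lists by pathway. Beside them, 1.95% of all tested genes fell in edgeR without the block and 6.57% with it. DESeq2 called 3.08% of the genes it tested lower. For 26 other homologous recombination genes the median (log2 fold change) was -0.18, 2 fell, and 0 rose. DESeq2 called 4 lower and the block 6, and 0 were higher in edgeR or DESeq2 or at an unadjusted p under 0.05. Dna2, a nuclease-helicase gene and 1 of the 2 that fell, was at 5.82 to 9.43 CPM against 29.4 to 47.7 CPM (-2.41 ± 0.29, edgeR, adjusted p = 0.00487). Of 19 other checkpoint genes 4 fell and 0 rose (median -0.33), namely the CDK-inhibiting kinase gene Wee1 (-1.36 ± 0.24), the fork protection gene Tipin (-1.08 ± 0.20) and the phosphatase genes Cdc25a (-1.06 ± 0.21) and Cdc25b (-0.93 ± 0.19, named in addition to the rule after its value was seen), and 7 fell with the block. Of 24 tested genes of base excision and mismatch repair outside the 39, 2 fell without and 4 with the block, and 0 rose (median -0.10). The 2 that fell without the block were Lig1, the ligase gene of DNA replication (-1.80 ± 0.21, adjusted p = 0.00439), and the flap nuclease gene Fen1 (-1.38 ± 0.18, adjusted p = 0.00577).

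In 4 other lists edgeR called 0 genes without the block, and DESeq2 called 0 too. Of 15 other Fanconi and crosslink repair genes (median 0.01), 9 tested genes of non-homologous end joining (median -0.02) and 19 of nucleotide excision repair (median 0.02), 0 had an unadjusted p under 0.05 and 0 passed with the block. Members with the smallest p-values were Dclre1a (-0.60 ± 0.27, adjusted p = 0.424), Xrcc6 (-0.50 ± 0.26, adjusted p = 0.499) and Ercc2 (0.38 ± 0.18, adjusted p = 0.463). Of 23 tested targets of the damage-responsive factor p53 (median 0.15), 2 were higher at an unadjusted p under 0.05. They were Bbc3 and Sesn1, the latter named after its value was seen. Over all tested genes 1292 of 10897 were under 0.05 in either direction. With the block 2 of the 23 rose, against 5.81% of all tested genes. Bbc3, a cell death gene, averaged 31.0 ± 10.8 against 15.5 ± 2.8 CPM (SD, n = 3 each; 0.98 ± 0.31, adjusted p = 0.216 without and 0.0414 with the block). The other was the antiproliferative gene Btg2 (0.51, adjusted p = 0.551 without and 0.00832 with the block), named after its value was seen.

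Lists tied to DNA synthesis and division had lower medians than the 39 genes. Of 24 DNA replication genes 14 fell without and 18 with the block, against 1.95% and 6.57% of all tested genes. Their median log2 fold change was -1.19, and the 12 proliferation markers had a median of -2.88. The range of the 39 genes, from -3.31 (Neil3) to 0.52 (Atr), spans these medians and that of all tested genes.

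**Figure D4:**
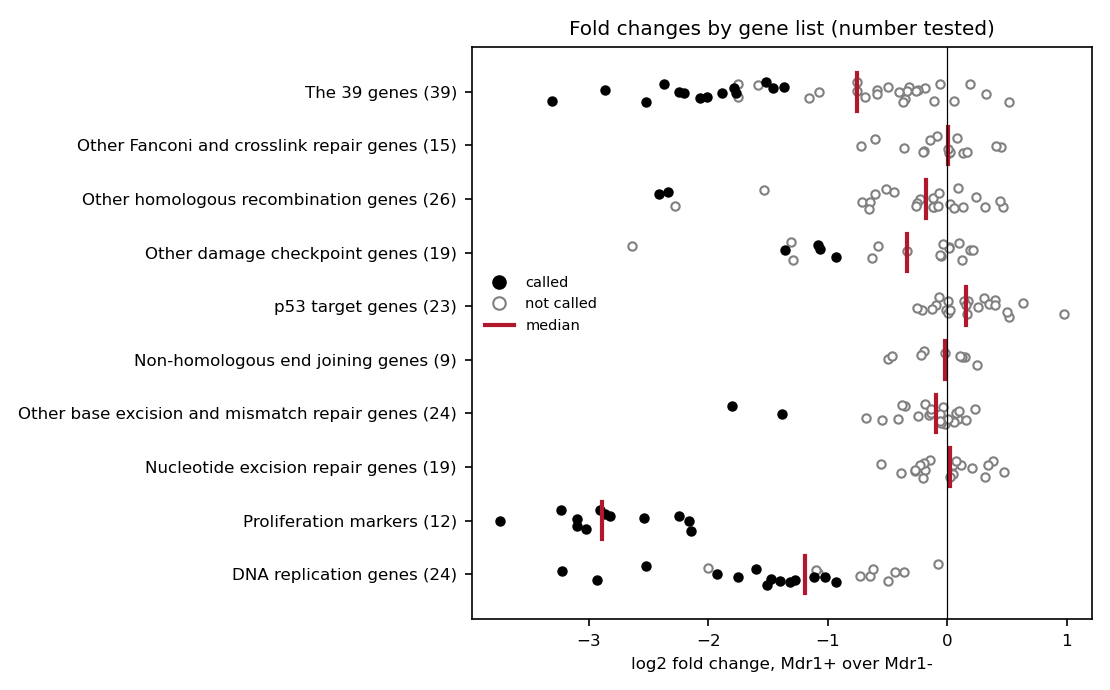
Fold change on the log2 scale, Mdr1+ over Mdr1- (x axis), of every tested gene in the 39 and in 9 other lists (y axis, number tested in parentheses; vertical jitter carries no meaning); black symbols passed the test with group only, and red bars are list medians. The 39 genes run from the range of the proliferation markers to that of end joining and excision repair genes.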

How the data were processed

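RNA-seq read counts per gene symbol, 1 column per library, were used as the authors deposited them. Per the submitters' processing notes the tools were TopHat, HTSeq and DESeq2, with build mm9. The sources used here give no version, annotation or strand setting, so reads of overlapping or antisense genes cannot be told apart. HTSeq's classes of unassigned reads, given for replicates 1 and 2, stayed out of the tests. Reads without a unique position were 67.0% to 73.2% of all entries there, and reads in no feature 13.2% to 19.7%.

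Counts of replicate 3 were assigned to the gene names sorted ignoring case, in which 81.3% of names stand at another row. Spearman correlations across genes with replicates 1 and 2 went from 0.424 to 0.460 as deposited to 0.926 to 0.962, against 0.957 to 0.969 among replicates 1 and 2. The tests otherwise followed the design.

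Tests used edgeR 4.0.16 in R 4.3.3 (TMM scaling, filterByExpr by group, robust quasi-likelihood F test, group only) over all 10897 genes that passed the filter, with Benjamini-Hochberg adjustment and a threshold of 0.05. The fit was also run on simulated counts with the same dispersion for every gene and no replicate effect. Same-numbered libraries were correlated in these data (below), so that run does not show how the fit performs on them. CPM are TMM-scaled, and pair ratios add 0.5 CPM. Alternatives were a replicate block, other scalings, DESeq2 1.42.0, other filters and leaving out libraries. Same-numbered libraries had correlations of 0.409, 0.568 and 0.213 in their deviations from the group means of log2 CPM (prior count 2), each library correlating best with its own number. Since each value is above 0.1, same-numbered samples were treated as pairs in the pair ratios and in the fits with the block. This rests on the data, as the labels do not state it. The fits with group only, among them the main fit and the 9 leave-out fits, did not use the pairing.

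All 39 genes are named. Values per library are given for the largest and smallest absolute fold change of each role, the 10 smallest adjusted p-values and up to 6 genes whose call the block changes. Of other lists at most 3 called genes per direction are named, or the one with the smallest p. Paxx could not be matched. Faap100, Faap24 and Faap20 were matched by RefSeq synonyms. The members and lists were chosen with earlier results of these data known. Results for some genes of these lists are not reported here.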

Additional observations from a re-analysis of the deposited data

How the results depend on the processing

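Without both libraries of replicate 3, or with replicate 3 in its deposited row order, edgeR called 0 of all genes (904 and 108 at an unadjusted p under 0.05) and 0 of the 39 (20 and 5 lower at an unadjusted p under 0.05). The second setting pairs counts with other genes' names by construction; the cause of the first was not tested. Counts of all called genes were 242 as reported, 1349 with the replicate block, 480 with DESeq2, and 0 to 210 when a library or a number was left out. Of the 39, 0 to 14 fell in those leave-out fits, and 14 to 25 fell with the block and a number left out, a setting added after the data were seen. Genes that rose numbered 1 with the block and 1 to 2 with the block and a number left out, where 392 to 1347 of all genes fell and 259 to 1131 rose. The median log2 fold change of the 39 was -0.95 with the block and -1.12 to -0.71 when a library or number was left out. Under RLE and upper-quartile scaling, no filter on low counts, and a filter at an average log2 CPM of 2, 14 fell. The share of all tested genes that fell was then 1.76% to 2.25%. DESeq2 called 16 lower, against 3.08% of the genes it tested.

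Signs changed in some leave-out fits for 4 genes that were called in none of them, whose log2 fold changes ran from -0.81 to 0.32 (Fancb), -0.58 to 0.19 (Fancc), -0.22 to 0.29 (Fance) and -0.61 to 0.073 (Fancf). The block added 6 calls and changed no other call among the 39. Depth limits the genes with under 10 counts in Mdr1+ replicate 3, such as Neil3, Rad54l and Exo1.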
